A study of Mus musculus with 6 samples.

Results

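Adhesion G protein-coupled receptors are membrane receptors whose long extracellular part binds matrix or neighbouring cells and whose membrane-spanning part signals through G proteins. In many of them the protein is cut as it is made, within the GPS, the cleavage site that lies just before the first membrane pass, and both pieces stay together at the cell surface until the inner one is exposed as a tethered agonist. In peripheral nerve the family is known best for Adgrg6 (GPR126), which Schwann cells need to raise cAMP and to myelinate, while leukocytes carry the EGF-repeat receptors of the Adgre group and blood vessels carry Adgrl4, Adgrf5 and Adgra2.

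The members were all genes whose symbol is an Adgr family symbol or Celsr1, Celsr2 or Celsr3 and that have a protein-coding transcript in the deposited tables. This gave 30 genes of 21669 genes with such a transcript. RNA came from distal sciatic nerve, left side, of mice of the C57BL/6 strain aged 6 to 8 weeks and taken 24 h after surgery, with 3 female libraries and 3 male ones. Each library was pooled from 2 animals. All 6 libraries carry axotomy as their treatment label and the stated aim concerns degenerating nerves, but the written procedure describes a sham operation in which the nerve was exposed and not cut, so it is not settled whether these nerves were injured. Unoperated nerves were not analysed here.

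Libraries held 55272138 to 77610593 estimated reads, of which 90.3% to 91.1% fell on protein-coding transcripts. The nerve markers were present in every library. The summed level of 7 Schwann cell markers was 5148 to 8471 CPM (counts per library size, scaled by TMM) in females and 11443 to 14825 CPM in males. Skeletal muscle markers were at 1468 CPM in female library 2 and 775 CPM in male library 1, against 4.58 to 20.2 CPM in the other 4. Across all 15221 genes tested, 0.0985% differed between the sexes at an adjusted p under 0.05 (edgeR's quasi-likelihood test with Benjamini-Hochberg adjustment), with 2 genes (0.0131%) higher in females and 13 (0.0854%) higher in males.

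Many members share a short coding stretch at the GPS, shown here for 8 of the expressed members because it occurs in receptors of such different cells. The search, written from the known features of the site, took an in-frame run of a cysteine, any, a cysteine, any, a histidine and any codon, then a threonine or serine codon, any codon, a phenylalanine codon, an alanine, glycine or serine codon, a valine, isoleucine, leucine or methionine codon, and a leucine or methionine codon, on the coding strand only. It matched 19 of the 30 members, and these were the only matches among 21877 genes with a protein-coding transcript in GENCODE M21 (0.0868%). The stretches below run 5′ to 3′ over 48 bases of coding exon of the GRCm38 genome, read from GENCODE M21, and capitals mark the codons on either side of the cleavage point.
Adgrg6: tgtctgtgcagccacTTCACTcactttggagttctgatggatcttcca
Adgre5: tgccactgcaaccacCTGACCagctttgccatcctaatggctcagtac
Adgre4: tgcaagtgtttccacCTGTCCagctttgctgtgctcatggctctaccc
Adgrd1: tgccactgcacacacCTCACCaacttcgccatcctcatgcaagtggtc
Adgrl4: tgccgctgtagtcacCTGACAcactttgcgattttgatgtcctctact
Adgrf5: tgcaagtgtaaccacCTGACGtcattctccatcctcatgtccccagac
Adgrl1: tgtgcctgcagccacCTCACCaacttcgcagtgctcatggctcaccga
Adgrl2: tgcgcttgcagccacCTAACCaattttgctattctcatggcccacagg

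The stretch of Adgrg6 lies at chr10:14428209-14431644 on the minus strand and is split by an intron. The other 7 are unbroken. On the minus strand, that of Adgre5 is at chr8:83725874-83725921 and that of Adgrl2 at chr3:148837573-148837620. On the plus strand, Adgre4 has it at chr17:55799723-55799770, Adgrd1 at chr5:129171873-129171920, Adgrl4 at chr3:151509323-151509370, Adgrf5 at chr17:43450374-43450421 and Adgrl1 at chr8:83933994-83934041. Adgrl1 and Adgrl2, both latrophilins, were the most alike of the 13 expressed members with a match, at 37 of 48 identical bases (77.1%). The leukocyte receptors Adgre5 and Adgre4 shared 34 of 48 bases (70.8%), and Adgre5 and Adgrd1 shared 35 (72.9%). Adgre1, Adgra2, Adgra3 and Celsr1 were the expressed members in which these letters were not found.

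Levels between genes were compared as TPM, which is scaled to transcript length. Of the 30 members, 17 averaged at least 1 TPM over the 6 libraries and 13 were below it. The leukocyte receptors Adgre1 (113 TPM) and Adgre5 (76.1 TPM) together held 53.6% of the family's summed TPM. The vascular Adgra2 (31.4 TPM), then Adgrd1 (24.7 TPM), the Schwann cell receptor Adgrg6 (18.5 TPM) and the vascular Adgrl4 (16.6 TPM) and Adgrf5 (15.4 TPM) followed. Adgra3 and Adgrg1 averaged 11.9 and 10.3 TPM. Adgrl2, Adgre4, Adgrl3, Adgrl1, Celsr2, Adgrg3, Adgrg2 and Celsr1 lay between 6.36 and 1.18 TPM. Neighbours in this order mostly overlapped over the 6 libraries: Adgre1 ran from 50.5 to 162 TPM and Adgre5 from 57.1 to 95.2 TPM, and Adgrg6 ran from 15.0 to 21.4 TPM within the 10.4 to 22.3 TPM of Adgrl4.

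**Figure D1:**
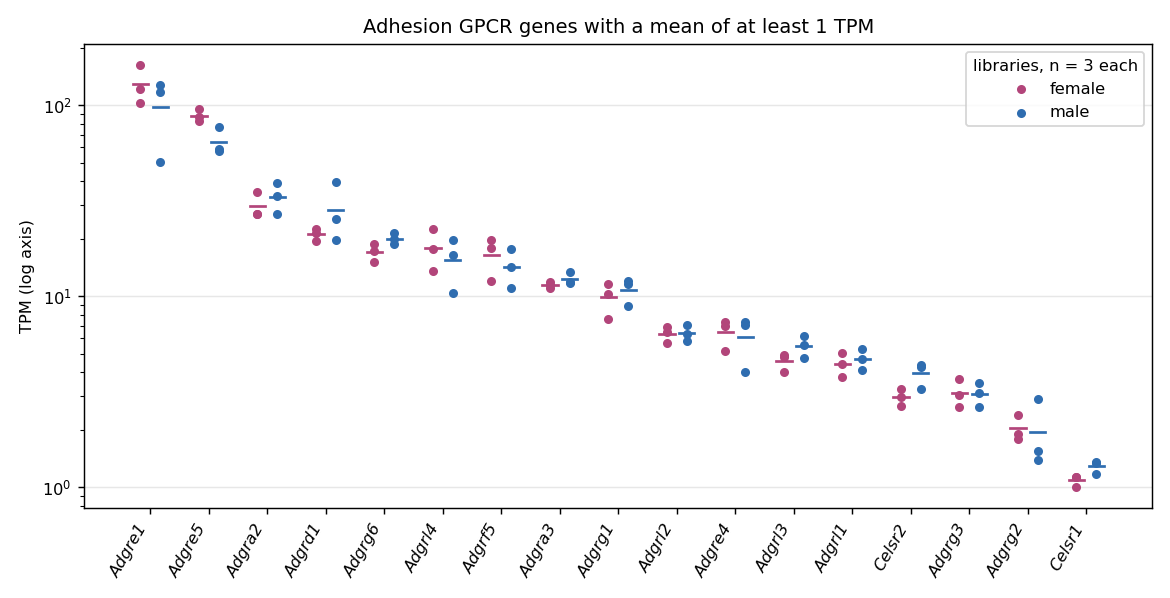
TPM of the 17 adhesion receptor genes with a mean of at least 1 TPM, on a log axis, by falling mean from left to right. Each point is a library, females left of males, and each bar is the mean of 3 libraries. Adgre1 and Adgre5 stand at the top, Adgre1 with the widest spread among males (50.5 to 127 TPM), and the female and male points overlap on this scale for all but Adgre5, Celsr2 and Celsr1.

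A low-count filter kept 27 members for the test, leaving out Adgrf1, Adgrf3 and Adgrg4. None of the 27 passed an adjusted p under 0.05 in either direction by edgeR, and adjusted p-values ran from 0.195 to 0.982. At an unadjusted p under 0.05 there were 5 (18.5%), against 15.0% of all genes tested. By log2 fold change (female minus male), 13 members were above 0 and 14 below it, with a median of −0.07 against 0.01 for all genes. By scaled counts, Adgre5 was the only member with every female library above every male one (3.70%, against 9.95% of all genes). Celsr1, Adgrb2 and Adgrb3 had all female libraries below all male ones (11.1%, against 12.0% of all genes). All 17 members with at least 1 TPM had a log2 fold change within 0.46 of 0 in either direction. DESeq2, a second count test, called 1 of the 27 members, Adgre5. Among all 15221 genes it called 201 higher in females and 555 higher in males. The shares of members with a low p and of members with females below males were near those of all genes.

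**Figure D2:**
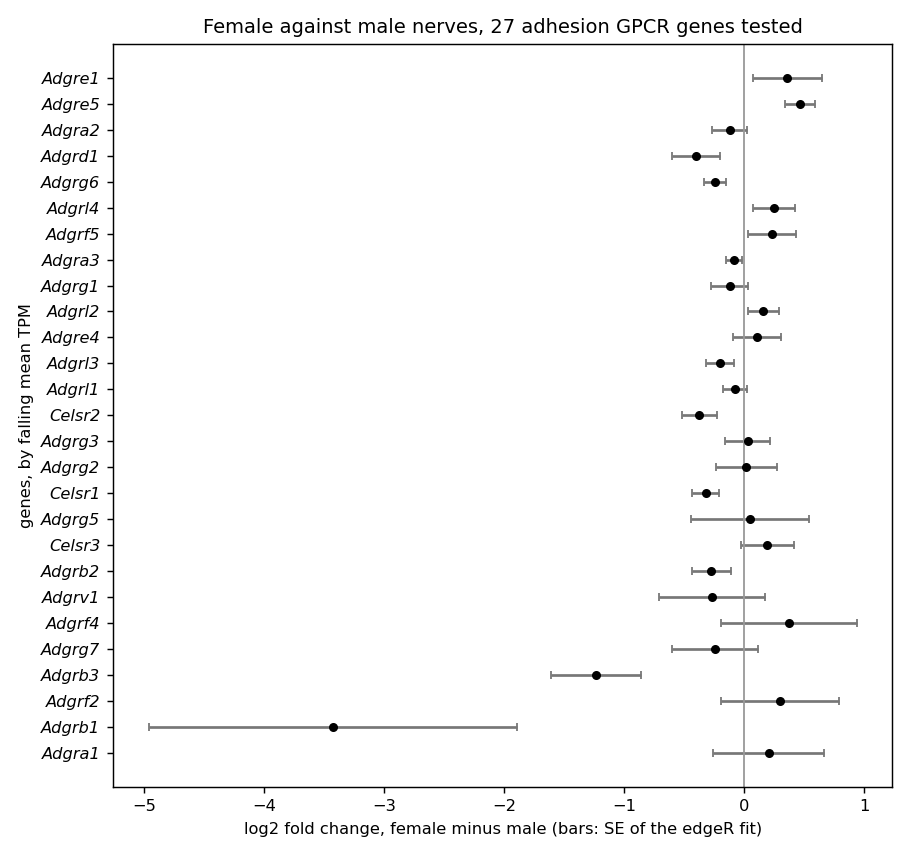
Log2 fold change, female minus male, of the 27 members that passed the low-count filter, ordered by falling mean TPM from the top. Bars are the standard error of the edgeR fit. Among the 17 genes with at least 1 TPM the points lie between −0.40 and 0.46, and the widest bars belong to genes below 1 TPM, with Adgrb1 at −3.43 ± 1.54.

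Adgrg6, the Schwann cell receptor that drives cAMP signalling before and during myelination, had 15.0, 17.2 and 18.7 TPM in female libraries 1 to 3 and 19.8, 18.7 and 21.4 TPM in male libraries 1 to 3. By TPM, female library 1 was lowest and male library 3 highest, while by scaled counts male library 1 was highest, at 79.8 CPM. The groups met where female library 3 and male library 2 were level. The log2 fold change was −0.24 ± 0.09 (SE), with an adjusted p of 0.291. None of the 7 Schwann markers passed the threshold, but all 7 gave negative log2 fold changes, median −0.40. For 5 of the 7 no female library reached the lowest male one, against 12.0% of all genes. As a percent of the Schwann marker sum, Adgrg6 stood at 0.976, 1.21 and 0.830 in females and 0.538, 0.609 and 0.667 in males, so that this ratio, unlike the CPM of Adgrg6 itself, was higher in every female library. Without both libraries that held muscle transcripts, the log2 fold change of Adgrg6 was −0.18. In whole tissue, fewer cells of a type and less RNA per cell cannot be told apart.

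Adgrg6 transcripts were mostly of the main form, named Adgrg6-201, at 79.8%, 70.9% and 74.0% of its coding reads in females and 75.8%, 73.7% and 74.4% in males. A form with an extra in-frame exon of 84 bases, 28 codons, in the extracellular part, Adgrg6-203, took 6.86%, 10.4% and 9.40% in females and 7.12%, 9.67% and 9.10% in males. The remaining form, Adgrg6-205, took 13.3% to 18.7%, and the groups overlapped for all 3. The exon of 84 bases lies at chr10:14456138-14456221 on the minus strand (GRCm38) and is shown here because it is what Adgrg6-203 has and Adgrg6-201 lacks, and it holds no cysteine codon to put in capitals. The coding difference of Adgrg6-205 was not analysed here.
Adgrg6 cassette exon: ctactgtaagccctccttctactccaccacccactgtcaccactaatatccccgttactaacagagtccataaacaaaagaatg

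Adgre1 encodes F4/80, the standard surface marker of mouse macrophages. It had 122, 162 and 103 TPM in female libraries and 50.5, 127 and 116 TPM in male libraries. Male library 1 stood well below the others and female library 2 was highest, and the groups overlapped. The log2 fold change was 0.36 ± 0.29, with an adjusted p of 0.603. The sum of the 7 macrophage markers, though not each marker, was also lowest in male library 1. That sum was 1796, 2246 and 1570 CPM in females and 1205, 1835 and 1897 CPM in males. As a percent of that sum, Adgre1 ran from 11.3 to 12.4 in females and from 8.75 to 12.0 in males. Without male library 1 its log2 fold change was 0.11, and without both libraries that held muscle transcripts it was −0.10. Nearly all coding reads, 92.8% to 95.7%, were of the form Adgre1-202.

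Adgre5 encodes CD97, which is found on most leukocytes and binds CD55 and Thy1. It had 86.5, 95.2 and 82.0 TPM in females and 57.1, 76.7 and 58.8 TPM in males, with the lowest female library above the highest male one. Scaled counts were 196 ± 13.3 CPM in females and 142 ± 23.3 CPM in males (SD, n = 3 each). The log2 fold change was 0.46 ± 0.12, with an adjusted p of 0.195 by edgeR and 0.0209 by DESeq2. Over all 17 alternatives the log2 fold change stayed between 0.36 and 0.62, with adjusted p-values of 0.0209 to 0.441, and DESeq2 gave the only value under 0.05.

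The level of Adgre5 was from 9.37% to 11.8% of the macrophage marker sum in females and from 6.58% to 11.0% in males, and that sum overlapped between the sexes. The sum of 7 neutrophil markers was 1767, 967 and 1749 CPM in females and 1378, 1136 and 711 CPM in males, so that the sums overlapped. None of these 7 passed the threshold by edgeR, and 6 of the 7 gave log2 fold changes above 0, with a median of 0.52. For 2 of the 7 all female libraries lay above all male ones, against 9.95% of all genes. The 6 T and NK cell markers measured summed to 5.54 to 7.49 CPM in females and 9.60 to 15.9 CPM in males, and all 6 gave negative log2 fold changes. The 4 B cell markers measured summed to 3.16 to 4.03 CPM in females and 3.69 to 4.73 CPM in males. No marker of these lists that was measured stood at 0 in any library. The part of any of these in the level of Adgre5 was not tested.

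The coding reads of Adgre5 were split over 4 forms in nearly fixed shares. Adgre5-203, the most abundant, took 41.1%, 41.2% and 40.6% in females and 43.6%, 40.2% and 41.8% in males. It holds an exon of 147 bases, 49 codons, that Adgre5-201 lacks, and Adgre5-201 took 28.5% to 32.4%. Adgre5-202, at 17.3% to 23.3%, carries a further exon of 135 bases upstream of that one. CD97 forms with different numbers of EGF-like repeats, folds held by cysteine pairs, are known, and the exon of 147 bases has 6 cysteine codons where the exon of 135 bases has 0. Both are in frame, lie at chr8:83730111-83730257 and chr8:83731903-83732037 on the minus strand (GRCm38), and are printed because they are what these forms differ by, with cysteine codons in capitals.
Adgre5 exon of 147 bases: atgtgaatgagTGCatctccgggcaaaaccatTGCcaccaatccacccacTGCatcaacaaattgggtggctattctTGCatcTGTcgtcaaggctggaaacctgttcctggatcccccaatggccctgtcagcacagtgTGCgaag
Adgre5 exon of 135 bases: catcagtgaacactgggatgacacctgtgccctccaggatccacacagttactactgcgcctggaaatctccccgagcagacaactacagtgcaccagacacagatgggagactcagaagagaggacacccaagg

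The remaining leukocyte members were far lower. Adgre4, a myeloid receptor of the same EGF-repeat group, had 5.17, 7.30 and 6.94 TPM in females and 4.02, 7.06 and 7.27 TPM in males, and male library 1 was again lowest. Its log2 fold change was 0.11 ± 0.20, with an adjusted p of 0.835. Adgrg3, a receptor of neutrophils, had 3.70, 2.62 and 3.05 TPM in females and 3.12, 3.51 and 2.61 TPM in males, a log2 fold change of 0.03 ± 0.19 with an adjusted p of 0.960. As a percent of the neutrophil marker sum, Adgrg3 varied from 0.308 to 0.610. Adgrg5 averaged 0.771 TPM, and 28.8% to 78.5% of its reads lay on transcripts annotated as non-coding, so its log2 fold change of 0.05 ± 0.49 became −0.36 when all transcripts were counted.

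**Figure D3:**
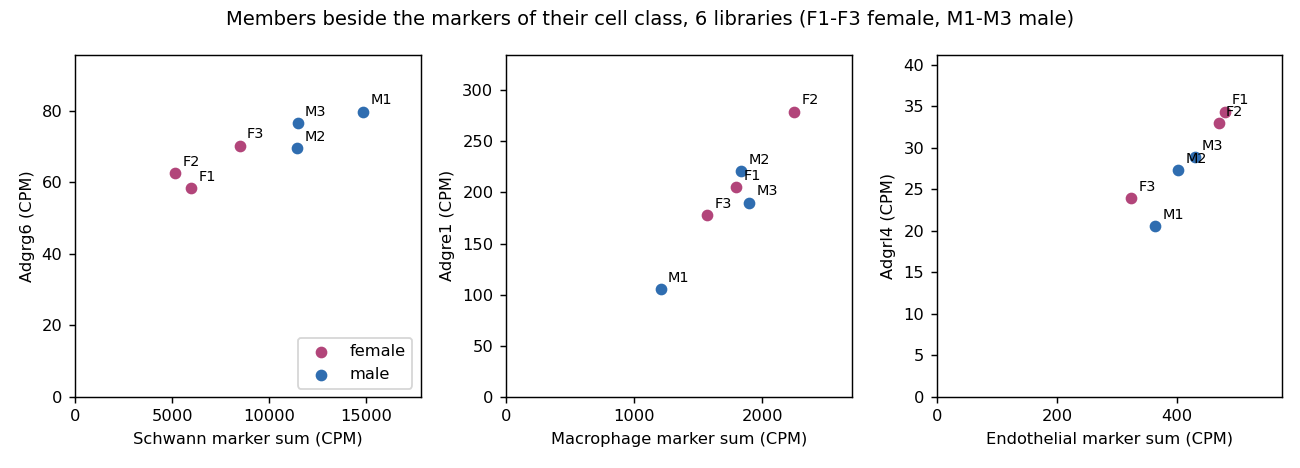
CPM of Adgrg6, Adgre1 and Adgrl4 against the summed CPM of 7 Schwann, 7 macrophage and 7 endothelial markers, for female libraries F1 to F3 and male libraries M1 to M3, with both axes starting at 0. The female libraries lie at lower Schwann sums (5148 to 8471 CPM) than the male ones (11443 to 14825 CPM) while Adgrg6 spans only 58.3 to 79.8 CPM, and male library 1 is lowest for Adgre1 and for the macrophage sum.

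Adgrl4 (ELTD1), a receptor of endothelial cells in sprouting vessels, had 17.6, 22.3 and 13.5 TPM in females and 10.4, 16.3 and 19.6 TPM in males. Adgrf5 (GPR116), which is carried by endothelium as well as by lung epithelium, had 17.8, 19.7 and 11.9 TPM in females and 11.0, 14.1 and 17.7 TPM in males. For both genes female library 2 was highest and male library 1 lowest by TPM, and the sexes overlapped. By scaled counts Adgrl4 was highest in female library 1, at 34.4 CPM against 33.0 CPM in female library 2. Adgrf5 was then lowest in female library 3, at 41.3 CPM against 41.5 CPM in male library 1. Their log2 fold changes were 0.25 ± 0.18 (adjusted p of 0.551) and 0.23 ± 0.20 (adjusted p of 0.627). The 7 endothelial markers summed to 480, 469 and 323 CPM in females and 363, 402 and 429 CPM in males, and as a percent of that sum Adgrl4 stayed between 5.67 and 7.42 and Adgrf5 between 11.4 and 14.2.

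Adgra2 (GPR124), the co-receptor through which Wnt7 ligands act on brain endothelium together with Reck, had 35.1, 27.03 and 26.98 TPM in females and 26.9, 33.5 and 39.02 TPM in males, with overlapping groups. Its log2 fold change was −0.12 ± 0.15, with an adjusted p of 0.737. It stood at 22.1% to 33.2% of the endothelial marker sum, at 22.9% to 30.9% of the sum of 5 mural cell markers and at 0.877% to 1.44% of the fibroblast marker sum. The form Adgra2-201 took 83.0% to 91.0% of its coding reads, and the second form lacks 645 coding bases over 3 exons. Reck averaged 11.2 TPM, while the Wnt7 ligands were nearly absent, with Wnt7b at 0.246 TPM and Wnt7a at 0.002 TPM.

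Adgrf5 reads were split between a form of 1347 codons, encoded identically by Adgrf5-201 and Adgrf5-206, and Adgrf5-205 with 1142 codons. The shorter form took 37.2%, 35.7% and 36.9% of coding reads in females and 47.5%, 42.2% and 37.2% in males, the groups meeting at 37.2%. Salmon assigns reads to similar transcripts by an estimate, so these shares carry an error that the tables do not give.

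Adgrd1 (GPR133), a Gs-coupled receptor for which Plxdc2 has been reported as a partner, had 19.4, 22.4 and 21.3 TPM in females and 19.6, 25.4 and 39.8 TPM in males. Male library 3 stood apart from the other 5. The log2 fold change was −0.40 ± 0.20, with an adjusted p of 0.405, and without male library 3 it was −0.13. The fibroblast marker sum was also highest in that library, at 16225 CPM, against 9302 to 9853 CPM in females and 11752 and 13731 CPM in the other 2 male libraries. As a percent of that sum Adgrd1 lay between 0.699 and 0.931, and the part of fibroblasts in its level was not tested. Its longer form, Adgrd1-201, took 81.1%, 77.0% and 76.9% of coding reads in females and 92.2%, 80.2% and 73.5% in males, male library 1 being highest. That form holds an in-frame exon of 96 bases at chr5:129112228-129112323 on the plus strand (GRCm38), shown because it is the whole difference in coding sequence between both forms, and without a cysteine codon.
Adgrd1 exon of 96 bases: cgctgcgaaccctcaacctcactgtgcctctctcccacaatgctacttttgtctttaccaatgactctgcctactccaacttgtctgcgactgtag

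**Figure D4:**
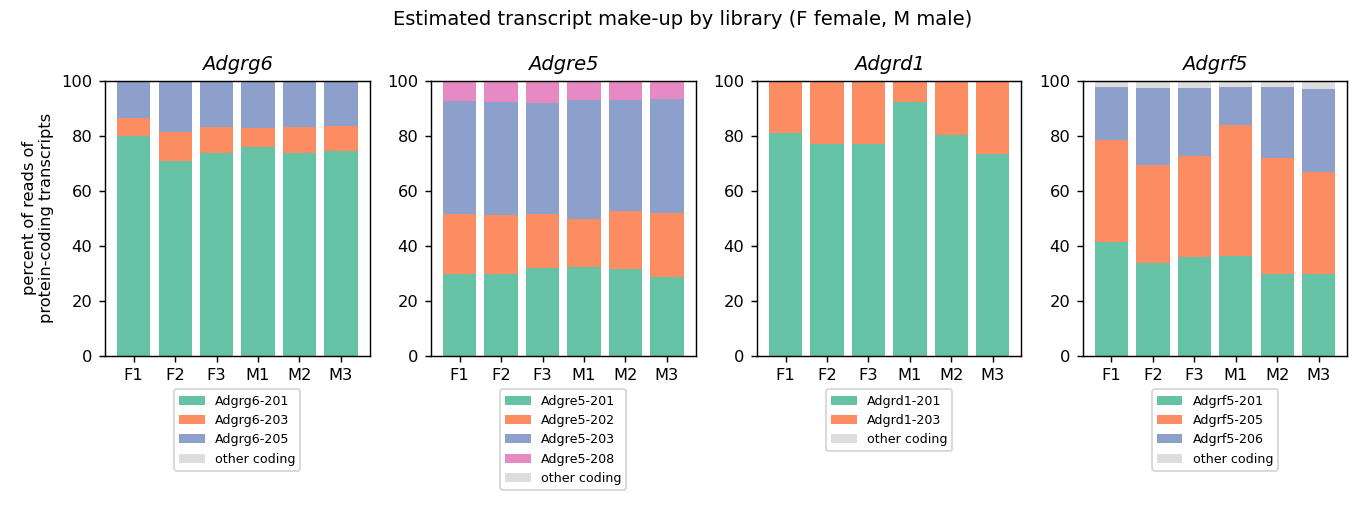
Percent of the reads on protein-coding transcripts of Adgrg6, Adgre5, Adgrd1 and Adgrf5 that was assigned to each transcript, for female libraries F1 to F3 and male libraries M1 to M3. The make-up of Adgre5 is nearly the same in all 6 libraries (Adgre5-203 at 40.2% to 43.6%), while Adgrd1-201 runs from 73.5% to 92.2%.

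Adgra3 (GPR125) was the steadiest of the expressed members, at 11.1, 11.5 and 11.9 TPM in females and 11.8, 11.7 and 13.3 TPM in males, and it gave a log2 fold change of −0.08 ± 0.07 with an adjusted p of 0.607. Adgrg1 (GPR56), a receptor for collagen III and transglutaminase 2 that is known from glia and cytotoxic lymphocytes, had 11.6, 10.3 and 7.62 TPM in females and 8.89, 11.5 and 12.0 TPM in males. The log2 fold change of Adgrg1 was −0.12 ± 0.15, with an adjusted p of 0.749. Adgrg2 (GPR64), best known from the epididymis, had 1.79, 2.39 and 1.901 TPM in females and 1.39, 1.55 and 2.88 TPM in males, with a log2 fold change of 0.02 ± 0.25. For Adgrg1 and Adgrg2 the groups overlapped and the estimates were within their standard error of 0.

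The latrophilins bind teneurins and FLRT proteins across cell contacts. Adgrl2 had 6.91, 6.49 and 5.65 TPM in females and 6.34, 5.79 and 7.02 TPM in males, Adgrl3 had 4.00, 4.91 and 4.81 TPM in females and 4.74, 5.52 and 6.14 TPM in males, and Adgrl1 had 5.05, 3.76 and 4.40 TPM in females and 4.11, 4.71 and 5.25 TPM in males. The groups overlapped for all 3. Log2 fold changes were 0.16 ± 0.13 for Adgrl2, −0.20 ± 0.12 for Adgrl3 and −0.07 ± 0.10 for Adgrl1, with adjusted p-values of 0.608, 0.465 and 0.769. The direction of Adgrl2 turned with the unit, at −0.01 on the log2(TPM + 1) scale.

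The Celsr genes encode the cadherin-bearing receptors of planar cell polarity, which work with frizzled and Vangl proteins. Celsr2 had 2.64, 2.96 and 3.25 TPM in females and 4.35, 3.27 and 4.23 TPM in males, so that by TPM male library 2 lay only just above the highest female library. Its scaled counts overlapped between the sexes. The log2 fold change of Celsr2 was −0.38 ± 0.15, with an adjusted p of 0.301. Celsr1 had 1.13, 0.997 and 1.13 TPM in females and 1.35, 1.17 and 1.33 TPM in males, with no overlap. Its log2 fold change was −0.32 ± 0.11, with an adjusted p of 0.256. Celsr3 averaged 0.737 TPM, with a log2 fold change of 0.19 ± 0.22, and −0.07 on the log2(TPM + 1) scale. Its reads were divided unstably over transcripts, Celsr3-201 taking 45.0% to 93.3%.

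The Adgrb (BAI) receptors, known from neurons and, for Adgrb1, from the uptake of apoptotic cells, were all below 1 TPM. Adgrb2 had 0.579, 0.481 and 0.554 TPM in females and 0.708, 0.634 and 0.655 TPM in males, with no overlap, a log2 fold change of −0.27 ± 0.16 and an adjusted p of 0.473. Adgrb3 had 26, 11 and 22 coding reads in females and 58.1, 27 and 38 in males, a log2 fold change of −1.24 ± 0.38 with an adjusted p of 0.224. With all of its transcripts counted, that of Adgrb3 was −0.53. Adgrb1 had 0, 10.1 and 0 coding reads in females and 61.0, 0 and 40.6 in males, but with all transcripts it had 53.0, 56 and 54 reads in females and 65, 52 and 42 in males. Its log2 fold change was −3.43 ± 1.54 on coding reads and −0.15 on all reads, so the large difference was seen on coding transcripts and not when all transcripts were counted.

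The other low members were Adgrv1, Adgrf4, Adgrg7, Adgrf2 and Adgra1, with means of 0.051 to 0.233 TPM and at most 40 reads in any library. Their log2 fold changes lay between −0.27 and 0.38, each within its standard error of 0. Adgrf1 had 4 to 8 reads per library, Adgrf3 had 0 to 5, and Adgrg4 had 1 read in male library 2 and 0 elsewhere. A count of 0 allows up to 3 reads, at most 0.0543 CPM in these libraries, counting error only.

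Partner genes of the receptors were read from the same test. Of 24 ligands and binding partners, 20 passed the low-count filter and none passed the threshold by edgeR. A negative log2 fold change was found for 17 of the 20, with a median of −0.24, and in 10 of the 20 all female libraries lay below all male ones, against 12.0% of all genes. Collagen III (Col3a1), the ligand of Adgrg1, averaged 3599 ± 229 CPM in females and 5124 ± 1293 CPM in males, a log2 fold change of −0.51 ± 0.19 with an adjusted p of 0.284. Among ligands reported for Adgrg6, the collagen IV chain Col4a1 averaged 1058 ± 56.3 CPM in females and 1437 ± 46.5 CPM in males, a log2 fold change of −0.44 ± 0.09 with adjusted p-values of 0.143 by edgeR and 2.8e-06 by DESeq2. The prion protein gene Prnp averaged 332 ± 30.8 CPM in females and 435 ± 54.0 CPM in males, a log2 fold change of −0.39 ± 0.11 with adjusted p-values of 0.213 by edgeR and 0.0341 by DESeq2.

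Some other partners, chosen after their values were seen because a member above is their receptor, were Lama2, part of the laminin that binds Adgrg6, and Cd55 and Thy1, partners of Adgre5. Lama2 averaged 125 ± 31.7 CPM in females and 191 ± 27.4 CPM in males, a log2 fold change of −0.61 ± 0.20 with an adjusted p of 0.241. Cd55 averaged 35.8 ± 7.53 CPM in females and 48.7 ± 5.55 CPM in males, with an adjusted p of 0.289. Thy1 averaged 26.9 ± 1.57 CPM in females and 35.2 ± 2.73 CPM in males, with an adjusted p of 0.158. For all 3 the female libraries lay below the male ones, which was known when they were chosen. The female libraries of Adgre5, the receptor of Cd55 and Thy1, lay above the male ones, and a link between them was not tested. Beside the ligand values, the summed level of 6 fibroblast markers was 9302 to 9853 CPM in females and 11752 to 16225 CPM in males, and the Schwann marker sum was also lower in females. Col3a1 belongs to both lists, and without it the fibroblast sum was 5594 to 6517 CPM in females and 7908 to 9795 CPM in males. Of the 6 fibroblast markers 5 gave negative log2 fold changes, while Pdgfra, at 0.08 ± 0.09, overlapped between the sexes. The part of either cell type in the ligand values was not tested.

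The G protein and cAMP route has 25 genes, all tested and none past the threshold by edgeR. Here 17 were below 0, the median was −0.10, and in 8 all female libraries lay below all male ones, against 12.0% of all genes. Gnas, which encodes the Gs subunit that raises cAMP downstream of Adgrg6, averaged 495 ± 13.6 CPM in females and 563 ± 9.31 CPM in males, a log2 fold change of −0.19 ± 0.07 with adjusted p-values of 0.299 by edgeR and 0.0491 by DESeq2. Gnai2, an inhibitory subunit abundant in leukocytes, was at 0.04 ± 0.08, and Prkar1a, a regulatory subunit of protein kinase A, at −0.12 ± 0.08 on the log2 scale. Egr2, the myelination factor that acts after cAMP in Schwann cells and was also picked after its values were seen, averaged 172 ± 15.6 CPM in females and 212 ± 21.1 CPM in males, with an adjusted p of 0.258.

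Of 12 planar polarity partners 6 were above 0 and 6 below, with a median of −0.01. Their most abundant members, Dvl1 and Dvl3, which relay frizzled signals, and Scrib, a polarity scaffold, had log2 fold changes of −0.11 ± 0.08, −0.03 ± 0.07 and −0.10 ± 0.07. Of 12 engulfment partners 8 were above 0 and 4 below, with a median of 0.02. Rac1, the GTPase of the engulfing cell, was at −0.09 ± 0.08 and its relative Rhog at 0.12 ± 0.09. Gas6, a bridging ligand between dying cells and Axl or Mertk, averaged 374 ± 47.5 CPM in females and 487 ± 23.2 CPM in males, a log2 fold change of −0.38 ± 0.11 with adjusted p-values of 0.201 by edgeR and 0.0223 by DESeq2. No gene of either list passed the threshold by edgeR.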

How the data were processed

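Stranded, poly-A selected RNA libraries of 6 nerve pools were sequenced, per the labels' protocols, and were handled with Salmon 1.5.2, Trimmomatic 0.39 and MultiQC 1.9, per the submitters' processing notes. The deposited tables give, per the file headers, an estimated count and a TPM for each of 140789 transcripts, with its length and effective length (other values, in bases). Estimated counts are deposited without scaling, and TPM values were deposited as computed by Salmon. No build or annotation release is given in the sources used here. Sequences came from GENCODE M21 (GRCm38) by transcript ID, where 232 of 239 member transcripts had an entry and 229 the same length.

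Estimated counts and TPM were summed per gene over protein-coding transcripts, and counts were rounded. Genes were filtered with edgeR's filterByExpr, scaled by TMM and tested with edgeR 4.0.16 (R 4.3.3), quasi-likelihood with robust estimation and no covariate, with Benjamini-Hochberg adjustment over 15221 genes. Fold changes are female minus male. SDs are over 3 libraries of separate pools. As a check for a library deposited 2 times, counts of replicates were compared, and no pair agreed within counting noise (at least 29.4 chi-square per degree of freedom). On simulated counts of 15110 genes for the female and male comparison, with 199 genes changed, the test recovered 68.7% of genes changed by 1 and 95.7% of those changed by 2 on the log2 scale, and called 12 unchanged genes. DESeq2 1.42.0, limma 3.58.1, other scalings and filters, all transcripts in place of coding ones, a block for replicate number, fits without each library and without both libraries with muscle transcripts were alternatives.

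Members were set by symbol. Members with at least 1 TPM were given in every library, others by range, and of each partner list the genes past the threshold and the 3 with the highest mean TPM were named. Trbc2 and Ighm of the marker lists have no transcript of the protein-coding class in the tables. Members and lists were chosen with earlier results of these data known.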

Additional observations from a re-analysis of the deposited data

Results flagged for a closer look

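A pair of transcripts outside the coding sums drew reads in every library. Adgrg3-202, annotated as a retained intron of Adgrg3, averaged 127 reads, with 191, 113 and 148 reads in females and 102, 120 and 88.5 reads in males, and held 20.1% to 28.3% of the reads of its gene. Adgrl3-231, a retained intron of Adgrl3, averaged 308 reads, with 242, 363 and 370 reads in females and 258, 274 and 341 reads in males, and held 17.6% to 25.4%. The groups overlapped for both. Both were picked out for their mean share of their gene's reads together with their mean number of reads. Other members also had reads on non-coding transcripts, such as Adgrg5, with 28.8% to 78.5% of its reads there.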

How the results depend on the processing

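No member passed an adjusted p under 0.05 under any of the 17 alternatives except Adgre5 with DESeq2 (1 member higher in females). Of 449 member values, 425 kept their direction and side of the threshold, and 14 of the 27 members never changed direction. DESeq2 called 201 genes higher in females and 555 higher in males, limma on log2(TPM + 1) called 0 and 8, and the replicate block 0 and 4. Leaving out a library gave 0 to 6 and 3 to 133, the 133 without female library 3, and 7 genes were higher in males without both libraries with muscle transcripts. The replicate numbers did not pair the libraries, with correlations of deviations of −0.17, −0.21 and 0.08, and under the block no member passed.

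The sign of 15 genes turned under some setting, each with an adjusted p of at least 0.367 there. Over the settings that left out libraries, log2 fold changes ran from −0.10 to 0.59 for Adgre1, −0.25 to 0.022 for Adgrg1, −0.14 to 0.24 for Adgre4, −0.14 to 0.0017 for Adgrl1, −0.12 to 0.19 for Adgrg3, −0.27 to 0.34 for Adgrg2, −0.58 to 0.32 for Adgrg5, −0.51 to 0.80 for Adgrf4, −0.47 to 0.016 for Adgrg7, −0.075 to 0.52 for Adgra1, −0.028 to 0.087 for Gnai2 and −0.068 to 0.014 for Dvl3. On log2(TPM + 1), Adgrl2 was at −0.0068, Adgrg5 at −0.12 and Celsr3 at −0.070. With all transcripts Adgrg5 was at −0.36 and Adgrv1 at 0.0099, and under the replicate block Adgrg5 was at −0.054. The cause was not tested. With 3 libraries a sex, p-values measure only the spread between these pools.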
